A study of Mus musculus with 6 samples.

Results

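The cytoplasmic ribosomal protein genes encode the structural proteins of the small (Rps) and large (Rpl) subunits of the ribosome. They were taken as the protein-coding rows of the gene table whose symbols begin with Rpl, Rplp or Rps and a digit, with Rpsa, leaving out S6 kinases, Rps27a, Rps19bp1 and pseudogenes. These criteria gave 83 genes of 17524 in the table, 50 of the large subunit and 33 of the small, spread over 19 chromosomes. Messenger RNA had been profiled in the trigeminal ganglion, the sensory ganglion of the face and meninges, from mice labelled wild type (WT). Vehicle and NTG had 3 libraries each, and no age, sex, dose or time is given in the labels. NTG is the labels' only name for the treatment, and in mouse migraine work it commonly stands for nitroglycerin. Each sample is a whole ganglion extract, so fewer cells of a type and less RNA per cell cannot be told apart.

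Each ribosome holds 1 copy of most of these proteins, so their messages are made at high and matched levels in growing and in resting cells. Most of the messages begin with a run of pyrimidine bases, the terminal oligopyrimidine (TOP) motif, through which the mTOR kinase and the RNA-binding protein Larp1 switch their translation on and off together. Sensory neurons are known to carry ribosomal protein messages into their axons, where some are translated after injury.

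The libraries held between 18813027 and 23774244 reads assigned to genes, and their values are given as normalised reads (reads divided by 1 size factor per library). The summed level of 10 sensory neuron markers lay between 6789 and 7132 CPM (reads scaled to library size) in all 6 libraries, with 2 rises and 3 falls among them. The 5 Schwann cell markers summed to 13319 to 14719 CPM in vehicle and 12619 to 14019 CPM in NTG, which overlapped, with 1 rise and 3 falls. Of 8 skeletal muscle markers 6 were lower in NTG, with sums of 8.03 to 15.4 CPM in vehicle and 3.32 to 3.52 CPM in NTG. The 6 satellite glia markers summed to 5062 to 5286 CPM in vehicle and 4654 to 4829 CPM in NTG, which did not overlap, with 2 rises and 2 falls. The 3 pituitary markers varied widely between libraries, from 74.9 to 188 CPM in vehicle and from 15.5 to 114 CPM in NTG, with 1 fall. None of the marker lists had a gene at 0 in all libraries, and the part of these cells in the results that follow was not tested.

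As a class the ribosomal protein genes took up 1.21%, 1.15% and 1.24% of reads in vehicle and 1.17%, 1.14% and 1.22% in NTG. These shares overlapped, so the summed level of the class differed by less than the spread between libraries. Single genes were steady within a group, with a median coefficient of variation of 5.64% in vehicle and 5.58% in NTG. The level per transcript length ran from 0.448 RPKM (reads per kilobase of transcript, scaled to library size) for Rps23rg1 to 613 RPKM for Rplp1, a protein of the ribosome's acidic stalk. After Rplp1 the highest levels per length, again in RPKM, were those of Rpl41 (436), Rpl13a (371), Rpl3 (350) and Rpl23a (334). The lowest were those of Rps23rg1, Rps27rt (1.08), Rpl37rt (1.88), Rps15a (14.2) and Rpl7l1 (16.8). The place of Rps15a rests on a transcript model of 5179 nucleotides, against a median of 830 for the class.

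Between NTG and vehicle the class split in both directions. Of the 83 genes, 19 fell and 9 rose at a limma adjusted p under 0.05 over all 17475 genes tested, and in all 28 the 3 NTG values lay outside the range of the 3 vehicle values. Over all genes tested, 25.8% were called, 13.5% lower and 12.3% higher in NTG, against 22.9% and 10.8% of the ribosomal protein genes. The remaining 55 did not pass, 27 with a positive and 28 with a negative difference, and their log2 ratios ran from -1.05 to 0.20. In the large subunit 13 of 50 genes fell and 6 rose, and in the small subunit 6 of 33 fell and 3 rose. Changes are given as the log2 ratio of NTG to vehicle (the log2 fold change of the plots), with its standard error after ±. The median of the class was -0.04, against 0.00 for all genes, and it lay between -0.07 and 0.05 over the alternative treatments of the data. Counting only whether the groups overlapped, 23 members lay lower and 9 higher in NTG, where the shares over all genes were 20% and 19.7% (39.7% in all). Whether each replicate is a different mouse is not stated, and the p-values therefore cover only the scatter among these 6 extracts.

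**Figure D1:**
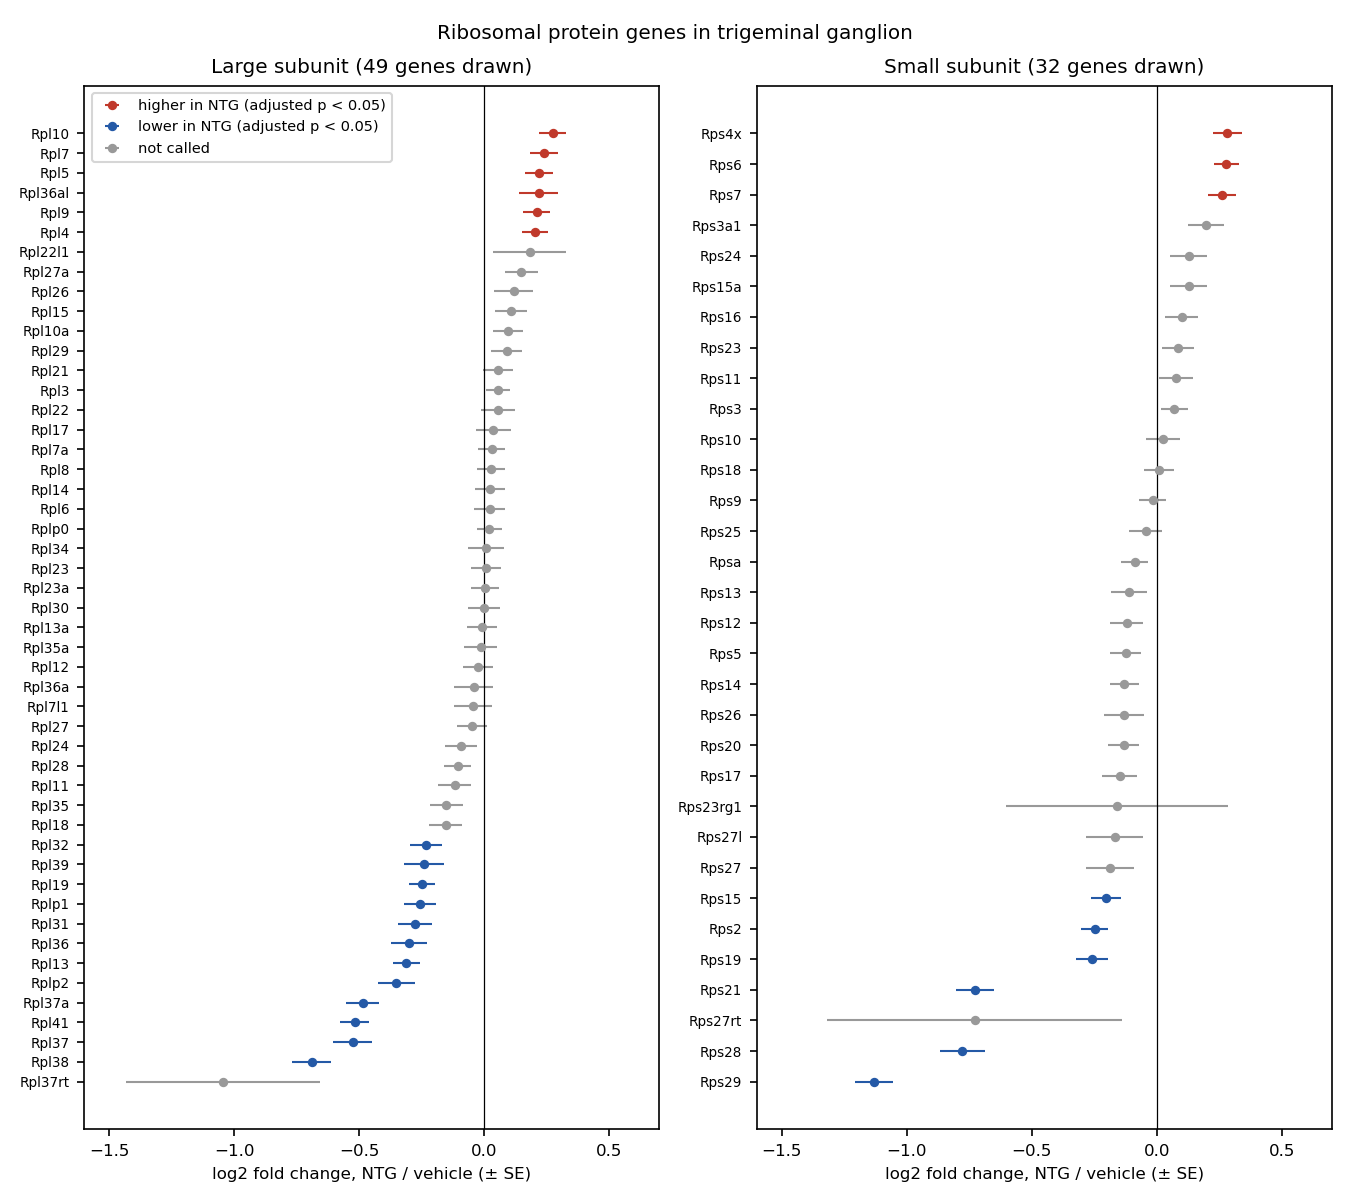
Log2 fold change of ribosomal protein genes between NTG and vehicle (horizontal axis, point with standard error), large subunit on the left and small subunit on the right, ordered by size; 2 of the 83 members are not drawn. The falls (blue) reach -1.13 at Rps29, while the 9 rises (red) end at 0.28 for Rps4x.

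Change across the whole table went with base composition: over 14849 other protein-coding genes Spearman's rho between the log2 ratio and transcript GC content was -0.65, and over the 83 ribosomal protein genes it was -0.40. These are descriptions across genes, which share the same 6 libraries. Each comparison was therefore repeated after the smooth trend of every library over transcript GC content and length had been removed, called the GC and length adjustment here. With it rho with GC content was -0.01 over the other genes and 0.28 over the members, whose adjusted values thus still went with GC content, in the opposite direction. After the adjustment 11 members fell and 10 rose, where 5.37% and 3.43% of all genes were called. Of the genes called in both ways, 10 fell and 5 rose. The split moved with the trend that was removed, to 13 falls and 13 rises with length alone and to 9 falls and 13 rises with GC content and coding length. The shares of all genes called under these other trends are not given here, so these counts cannot be set against them. The part of base composition in the unadjusted calls was not otherwise tested.

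The 6 largest falls belonged to Rps29, Rps28, Rps21, Rpl38, Rpl37 and Rpl41, which encode proteins of 25 (Rpl41) to 97 (Rpl37) residues. Rps29, a zinc-binding protein of the head of the small subunit (gene ID 20090, chr12:69157722-69159186 on GRCm38, minus strand), was listed at 2396, 2279.9 and 2513 normalised reads in vehicle and 1174, 959 and 1159 in NTG. The highest NTG value was far below the lowest vehicle value, and the fall was 2.19-fold (log2 ratio -1.13 ± 0.08 SE, limma adjusted p = 2.02e-08). With the GC and length trends removed its log2 ratio was -1.0. Rps28, which lies near the exit of the messenger RNA path of the small subunit (gene ID 54127, chr17:33823036-33824562, minus strand), stood at 1121, 1238 and 1418 in vehicle and 718, 668 and 811 in NTG. Its highest NTG value was below its lowest vehicle value (log2 ratio -0.78 ± 0.09, limma adjusted p = 8.56e-06, -0.66 after adjustment). Rps21, another small-subunit protein (gene ID 66481, chr2:180257379-180258444, plus strand), went from 2165, 2318 and 2379 to 1292, 1289 and 1577. NTG replicate 3 was the highest of its group, and the groups stayed apart (-0.73 ± 0.08, limma adjusted p = 2.88e-06, -0.62 after adjustment).

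The other 3 are proteins of the large subunit. Rpl38, known from mice in which its loss alters the translation of Hox messages (gene ID 67671, chr11:114667818-114672333, plus strand), was listed at 1654, 1592 and 1888 in vehicle and 1069.6, 964 and 1146 in NTG. All NTG libraries were lower (log2 ratio -0.69 ± 0.08, limma adjusted p = 5.74e-06), and the value was -0.37 after adjustment. Rpl37, a zinc-binding protein (gene ID 67281, chr15:5116613-5119140, plus strand), stood at 1787, 1644 and 1906 in vehicle and 1264, 1092 and 1353 in NTG. The groups were apart, and the log2 ratio was -0.53 ± 0.08 as deposited (limma adjusted p = 8.55e-05) and -0.60 after adjustment. Rpl41, a basic peptide of 25 residues that bridges the subunits (gene ID 67945, chr10:128548110-128549168, minus strand), went from 4536, 4505 and 4822 to 3209.8, 3056 and 3419. It fell in all 3 NTG libraries (-0.52 ± 0.06, limma adjusted p = 4.81e-06), and the value was -0.28 after adjustment. With GC content and coding length removed instead, Rpl41 stood at -0.12 and did not pass (limma adjusted p = 0.159). Rps29, Rps28, Rps21, Rpl38 and Rpl41 were also the 5 members called by limma's test of a change beyond 1.2-fold, which called 1.35% of all genes lower. The other falls included Rpl37a at -0.49 and Rplp2, Rpl13, Rpl36, Rpl31, Rps19, Rplp1, Rpl19, Rps2, Rpl39, Rpl32 and Rps15, whose log2 ratios lay between -0.35 and -0.20.

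The 6 largest rises were smaller and belonged to Rps4x, Rps6, Rpl10, Rps7, Rpl7 and Rpl5. Rps4x, an X-linked gene of the small subunit (gene ID 20102, chrX:102184941-102189391, minus strand), was listed at 3446, 3379 and 3758 in vehicle and 4224, 4195 and 4434 in NTG. The groups were apart (log2 ratio 0.28 ± 0.06, limma adjusted p = 0.00108). Rps6, the substrate of the S6 kinases (gene ID 20104, chr4:86854099-86857367, minus strand), stood at 4166, 4072 and 4127 in vehicle and 4905, 5009 and 5074 in NTG. Both groups were tight and apart (0.28 ± 0.05, limma adjusted p = 0.000497). Rpl10, needed for joining of the subunits (gene ID 110954, chrX:74270816-74273135, plus strand), went from 4276, 3998 and 4386 to 4898, 5225 and 5166 (0.27 ± 0.05, limma adjusted p = 0.00103). With the trends removed these 3 values were 0.20, 0.25 and 0.28, and all 3 genes still passed.

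Rps7, a small-subunit protein that can bind Mdm2, was listed at 2868, 2818 and 2859 in vehicle and 3376, 3256 and 3606 in NTG. It rose by 0.26 ± 0.06 (limma adjusted p = 0.00210) and by 0.21 after adjustment. Rpl7, which binds ribosomal RNA of the large subunit, stood at 4147, 3945 and 4226 in vehicle and 4691, 4683 and 5160.4 in NTG. Its groups were apart (log2 ratio 0.24 ± 0.06, limma adjusted p = 0.00363), but its value was 0.08 after adjustment and no longer passed. Rpl5, a partner of 5S ribosomal RNA, went from 3057, 2839.8 and 3057 to 3419, 3448 and 3555. The rise of Rpl5 (0.22 ± 0.06, limma adjusted p = 0.00635) was not seen after adjustment, at -0.01. None of the rises reached a 1.5-fold change, and the same test beyond 1.2-fold in limma called 0 of them, also at an unadjusted p under 0.05, where it called 0.441% of all genes higher. The other 3 rises were Rpl36al, Rpl9 and Rpl4, with log2 ratios of 0.22, 0.21 and 0.20.

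**Figure D2:**
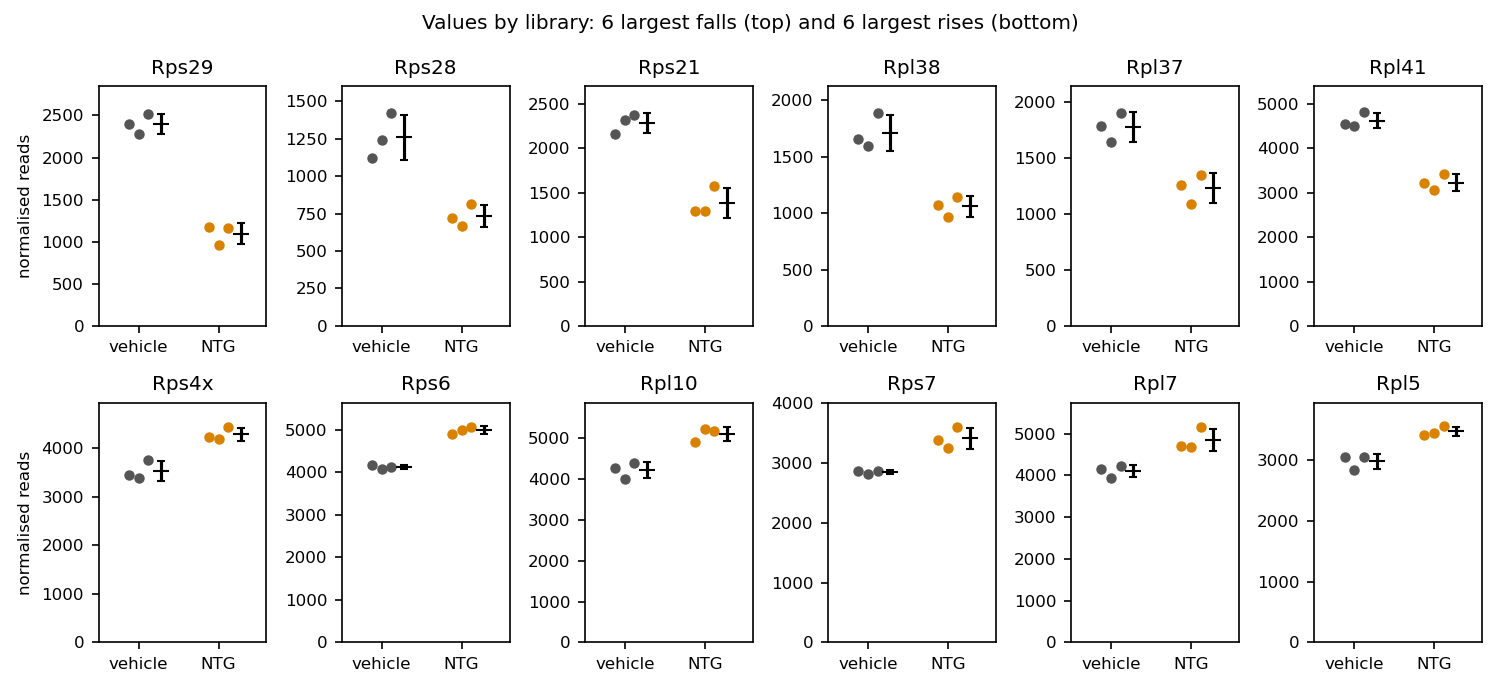
Normalised reads (vertical axes, from 0) of the 6 members with the largest falls (top) and the 6 with the largest rises (bottom) in each library, grey for vehicle and orange for NTG, with mean and SD (n = 3 each) beside them. In all 12 panels the groups are apart, with Rps29 between 2279.9 and 2513 in vehicle and between 959 and 1174 in NTG.

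The calls held for most members when single libraries were left out. Of the 28 called genes, 23 (16 falls and 7 rises) passed without each of the 6 libraries in turn. Rpl39, which lines the peptide exit tunnel, did not pass without vehicle replicate 2, vehicle replicate 3, NTG replicate 1 or NTG replicate 2. Rps15 did not pass without vehicle replicate 3, NTG replicate 1 or NTG replicate 2, and Rpl32 did not without NTG replicate 1. Among the rises, Rpl4 did not pass without vehicle replicate 2, and Rpl36al did not without vehicle replicate 1 or 2 or NTG replicate 2 or 3. Rps15, chosen after its values were seen, was the 1 fall called higher after adjustment, with a log2 ratio of -0.20 as deposited and 0.22 once the trends were removed (limma adjusted p = 0.00658).

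To show what lies at the start of genes that moved in opposite directions, the 60 bases around the RefSeq transcript start (GRCm38.p6, 30 on each side, in the direction of transcription) are printed for 3 genes that fell and 3 that rose, with the longest run of pyrimidines in capitals.
Rps28 (fell, chr17:33824533-33824592, minus strand): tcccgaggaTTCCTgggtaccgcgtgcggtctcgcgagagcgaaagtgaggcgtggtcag
Rpl38 (fell, chr11:114668550-114668609, plus strand): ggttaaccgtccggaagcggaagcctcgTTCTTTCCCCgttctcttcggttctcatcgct
Rpl41 (fell, chr10:128549139-128549198, minus strand): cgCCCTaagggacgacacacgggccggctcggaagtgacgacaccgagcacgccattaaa
Rps4x (rose, chrX:102189362-102189421, minus strand): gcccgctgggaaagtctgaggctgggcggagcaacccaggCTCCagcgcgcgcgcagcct
Rps6 (rose, chr4:86857338-86857397, minus strand): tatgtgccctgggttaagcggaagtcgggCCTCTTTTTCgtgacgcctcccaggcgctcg
Rpl5 (rose, chr5:107900498-107900557, plus strand): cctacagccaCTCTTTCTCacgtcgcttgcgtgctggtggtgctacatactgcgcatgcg
Rpl38 and Rps6, which moved in opposite directions, each hold a run of 10 pyrimidines that begins within 2 bases of the start. Rpl41 and Rps4x, also opposite, hold none longer than 4 in this window. The starts are annotated ones and were not mapped in these libraries. For Rpl38 and Rpl5 they differ from the gene starts listed with the reads, at 114667818 and 107900508. The windows therefore do not show which messages begin with a TOP motif.

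A RefSeq promoter was matched for 64 of the 83 genes, 14 that fell, 8 that rose and 42 not called; Rps29 and Rpl7 were not among them. A pyrimidine run of at least 8 bases within the 60 bases was present in 32 of the 64 (50%), against 21.3% of 12042 protein-coding promoters. It was present in 5 of the 14 genes that fell, 4 of the 8 that rose and 23 of the 42 not called. The letters CCGGAAG, the core of sites bound by ETS factors, occurred on either strand of the 300-base promoter in 24 of the 64 (37.5%), against 16.1% of all promoters. They occurred in 9 of the 14 genes that fell, 2 of the 8 that rose and 13 of the 42 not called. AAGATGG, contained in YY1 sites, occurred in 15.6% of the members and 6.68% of all promoters, and TATAAA in 10.9% and 7.71%. These are matches of letters around annotated starts. They describe no binding, and the runs do not show which messages begin with a TOP motif.

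Among the members, the size and sign of the change went with the length of the coding sequence. Spearman's rho between coding length and log2 ratio was 0.54 over the 82 members with an annotated coding sequence and 0.49 after the GC and length adjustment, against 0.08 and 0.10 over 14775 other protein-coding genes. It was 0.53 over 49 large-subunit and 0.56 over 33 small-subunit genes. Coding length and GC content were not related within the class (rho 0.01). The length groups that follow were drawn after the values were seen, so they describe and do not test. The part of RNA or fragment length in this pattern was not tested beyond the values given here.

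The 82 members were split by coding length into 3 classes of near equal size. In the shortest class (28 genes, 75 to 390 nucleotides) 13 fell and 1 rose, with a median log2 ratio of -0.20. The single rise there was Rpl36al. In the middle class (27 genes, 396 to 564 nucleotides) 3 fell and limma called 0 rises, with 1 at an unadjusted p under 0.05 and 0 in edgeR and DESeq2, and the median was -0.03. Of 920 other protein-coding genes of these lengths, 16.3% fell and 10.7% rose. In the longest class (27 genes, 576 to 1257 nucleotides) 8 rose and 3 fell, with a median of 0.03, where 11.3% of 4763 other genes of these lengths rose and 13.8% fell. With the GC and length trends removed, the shortest class had 10 falls and 1 rise, which are not all the same genes: the rise was Rps15 in place of Rpl36al, and the falls included Rps20. In the longest 7 rose and limma called 0 falls, with 1 at an unadjusted p under 0.05. Of 668 other protein-coding genes with coding sequences as short as the shortest class, 124 fell (18.6%) and 54 rose (8.08%), with a median of -0.06. After adjustment 86 of these 668 fell and 20 rose. Of the 4763 other genes with the lengths of the longest class, 131 rose and 294 fell after adjustment.

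**Figure D3:**
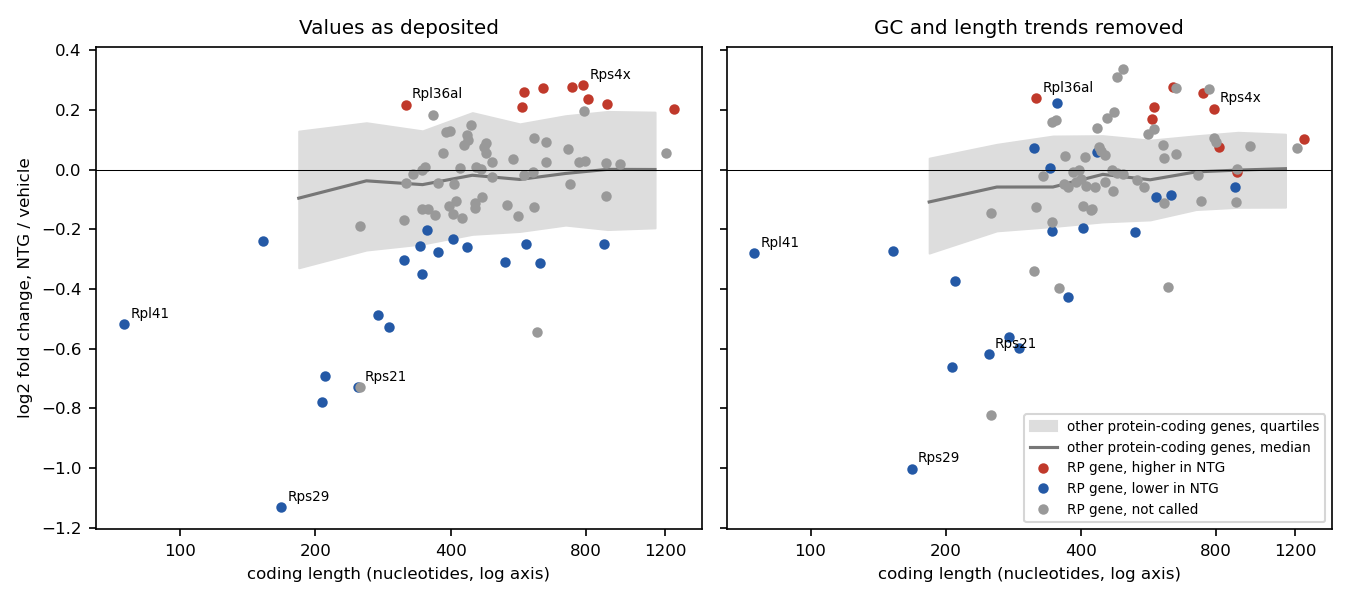
Log2 fold change between NTG and vehicle (vertical axis) against coding length in nucleotides (log axis) for the 82 ribosomal protein genes with a coding sequence, as deposited (left) and after each library's GC and length trends were removed (right). Points are coloured by the calls on the deposited values in both panels, and the band and line are the quartiles and median of other protein-coding genes. Of the 10 members with coding sequences under 300 nucleotides 8 were called lower, down to Rps29 at -1.13 on the left and -1.0 on the right.

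The falls were concentrated in the shortest genes. Of the 10 members with coding sequences under 300 nucleotides 8 fell, both as deposited and after adjustment, and limma called 0 rises in these 10 (0 at an unadjusted p under 0.05, 0 in edgeR and DESeq2). The 8 were the 6 largest falls with Rpl37a and Rpl39, and the others were Rps27 and Rps27rt. Rpl37a, a zinc-binding protein of the large subunit chosen after its values were seen, was listed at 2116, 2064 and 2307 in vehicle and 1535, 1475 and 1614 in NTG. Its groups were apart (log2 ratio -0.49 ± 0.07, limma adjusted p = 2.59e-05), and its value was -0.56 after adjustment. Rpl39 stood at 833, 924 and 937 in vehicle and 778, 705 and 798 in NTG (-0.24 ± 0.08, limma adjusted p = 0.0313). Rps27, whose groups overlapped, had a value of -0.19 ± 0.09 and did not pass (limma adjusted p = 0.158). The 10 genes together held 0.0868%, 0.0848% and 0.0943% of reads in vehicle and 0.0595%, 0.0547% and 0.0633% in NTG, so their summed share did not overlap between groups. Their median log2 ratio was -0.61, and -0.58 after adjustment.

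Other short genes were also called lower more often than all genes, but did not show a shift of this size. Of 291 other protein-coding genes with coding sequences under 300 nucleotides, 66 fell (22.7%) and 21 rose, with a median log2 ratio of -0.08. Over all genes tested 13.5% were called lower. After the GC and length adjustment 17.2% of the 291 fell, where 5.37% of all genes were called lower, and their median was again -0.08. By whole transcript, 7 of 11 members under 500 nucleotides fell (median -0.52, -0.28 after adjustment), against 17 of 62 other protein-coding genes (27.4%, median -0.16, -0.07 after adjustment). The 62 genes were less abundant, with a median of 72.7 normalised reads in vehicle against 1712 for the 11 members. No test of the difference between members and other genes was made.

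The libraries of a group were not alike in the short members. The median deviation of the 28 shortest members from each gene's mean was 0.07, 0.06 and 0.16 on the log2 scale in vehicle replicates 1 to 3, and -0.16, -0.15 and 0.00 in NTG. NTG replicate 3 thus stood nearer to vehicle than NTG replicates 1 and 2, without reaching it. In the 668 other genes as short, replicate 3 was also the highest of each group, with medians of 0.04, 0.01 and 0.06 in vehicle and -0.05, -0.06 and 0.00 in NTG. In the longest class the medians were -0.01, -0.07 and -0.00 in vehicle and 0.01, -0.02 and 0.09 in NTG, and these overlapped.

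**Figure D4:**
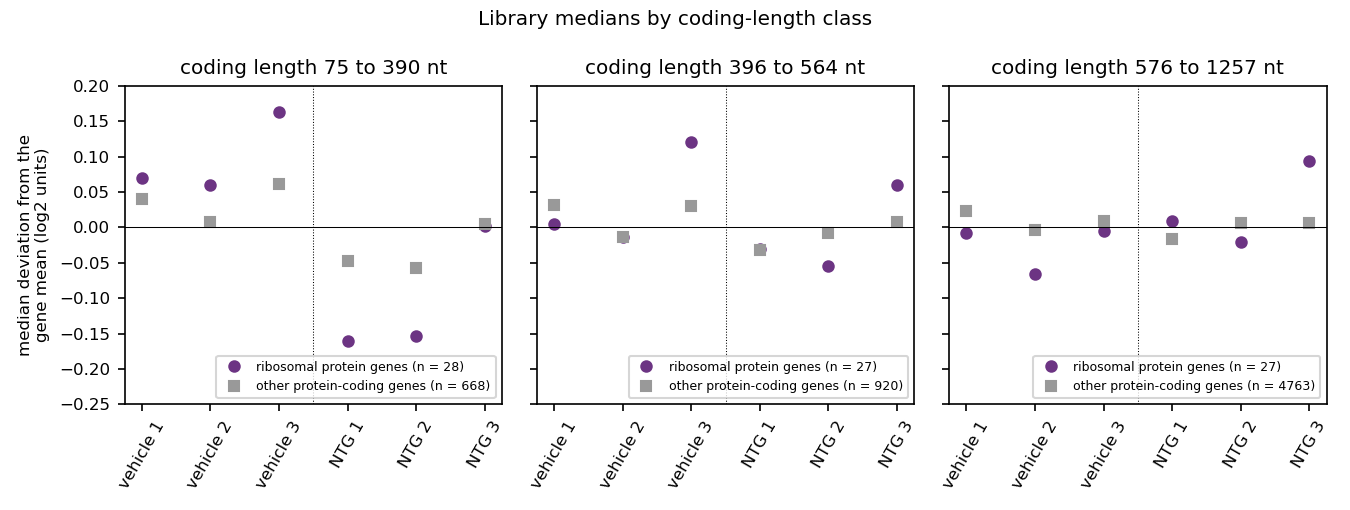
Median deviation from each gene's mean over the 6 libraries (vertical axis, log2 units) for ribosomal protein genes (purple circles) and other protein-coding genes of the same coding length (grey squares), in each library and class of coding length. In the shortest class the members stand between 0.06 and 0.16 in vehicle and between -0.16 and 0.00 in NTG, while in the longest class the groups overlap.

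The acidic stalk recruits the elongation factors and is built from Rplp0, Rplp1 and Rplp2. Rplp0, its anchor and a common reference gene, was listed at 8495, 7849 and 8318 in vehicle and 8092, 8349.8 and 8544 in NTG. The groups overlapped (log2 ratio 0.02 ± 0.05, limma adjusted p = 0.820). Rplp1 stood at 6408, 6548 and 7634 in vehicle and 5490.5, 5630.2 and 6079 in NTG and fell (-0.26 ± 0.06, limma adjusted p = 0.00541), but its value was 0.01 after the GC and length adjustment. Rplp2 fell from 1588, 1789 and 1933 to 1338, 1382 and 1429 (-0.35 ± 0.07, limma adjusted p = 0.00121), and with -0.21 it did not pass after adjustment (limma adjusted p = 0.0557).

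Rpl11, which joins Rpl5 and 5S ribosomal RNA in the particle that restrains Mdm2, stood at 3824, 3922 and 4424 in vehicle and 3492, 3655 and 4055 in NTG. Its groups overlapped (log2 ratio -0.12 ± 0.07, limma adjusted p = 0.198). Rps19, the gene most often mutated in Diamond-Blackfan anaemia, fell from 2165, 2160.5 and 2352 to 1842, 1764 and 1978 (-0.26 ± 0.06, limma adjusted p = 0.00511). Its value after adjustment was 0.06. Rpl10a, a core protein of the large subunit often tagged to isolate ribosomes from chosen cells, did not pass as deposited (0.09 ± 0.06, limma adjusted p = 0.275) and did with trends removed (0.27, limma adjusted p = 0.000871). Rps3, Rps25, Rpsa and Rpl13a had log2 ratios of 0.07, -0.05, -0.09 and -0.01, and their groups overlapped. Rpl3 and Rpl23a, among the most abundant members per length, had values of 0.05 and 0.00.

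The introns of 30 of the 83 genes host 58 small nucleolar RNAs in all. Rps20, Rps10, Rpl8 and Rpl29, chosen after their values were seen, were not called as deposited, at -0.13, 0.02, 0.02 and 0.09, but were after the GC and length adjustment, at -0.40, 0.34, 0.27 and 0.31. The fall was that of a transcript with 41.3% GC, on a model of 3706 nucleotides, and the rises were those of transcripts with 60.3%, 58.0% and 56.8%, against a median of 50.7% for the class. All 4 lie in the direction in which the members' adjusted values went with GC content, and the part of GC content in them was not tested.

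The class holds 7 genes that are paralogs or retrogene copies of another member. Only Rpl36al rose (1038, 957 and 1069 normalised reads in vehicle, 1086, 1168 and 1315 in NTG; log2 ratio 0.22 ± 0.08, limma adjusted p = 0.0464), while its X-linked parent Rpl36a stood at -0.04. Rpl36al made up 51.5% to 56.5% of the summed level of Rpl36al and Rpl36a in vehicle and 55.8% to 59.1% in NTG. Rpl7l1, a relative of Rpl7, had a value of -0.05 against 0.24 for Rpl7. Rpl7l1 made up 17.4% to 19.1% of the summed level of Rpl7l1 and Rpl7 in vehicle and 15.0% to 16.5% in NTG. Rpl22l1 and Rpl22 stood at 0.18 and 0.05, and Rps27l and Rps27 at -0.17 and -0.19. Limma called 0 falls among the 7, with 1 at an unadjusted p under 0.05, 1 in edgeR and 0 in DESeq2.

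The retrogenes Rps27rt, Rpl37rt and Rps23rg1 each made up only 0.414% to 2.44% of the summed level of retrogene and parent. Rpl37rt had the largest negative value among genes not called (20.7, 41.2 and 47.4 normalised reads in vehicle, 15.7, 12.8 and 20.8 in NTG; log2 ratio -1.05 ± 0.39, limma adjusted p = 0.0512). Its groups overlapped by a narrow margin. Rps27rt lies on the strand opposite Osbpl10, a gene with 242 times as many reads, and if counting ignored strand the pair cannot be separated. The same holds for 4 called members with an opposite neighbour of fewer reads: Rpl31 with Tbc1d8 (0.417 times its reads), Rpl19 with Cacnb1 (0.265), Rpl32 with Cand2 (0.105) and Rpl5 with Dipk1a (0.0829). Near-identical copies make the counts of many members uncertain, since 59 of the 83 have at least 1 named pseudogene (up to 24, for Rpl31 and Rps12) that could share reads.

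The proteins made as fusions with ubiquitin or a ubiquitin-like protein are ribosomal proteins too, but their symbols keep them out of the 83. Fau, the source of Rps30, fell from 4349.8 ± 232 to 2993 ± 198 normalised reads (SD, n = 3 each; log2 ratio -0.54 ± 0.06, limma adjusted p = 5.48e-06) and by 0.21 after adjustment. Rps27a stood at -0.05. Limma called 0 rises among the 3, at an unadjusted p under 0.05 too, as did edgeR and DESeq2.

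Other genes of the pathway, from lists written from textbook knowledge, moved in both directions. Of 24 other TOP messages, which include the 3 fusion genes, 11 rose (45.8%) and 4 fell (16.7%), against 12.3% and 13.5% of all genes. After adjustment 8 rose and 4 fell, where 3.43% of all genes were called higher and 5.37% lower. The elongation factor Eef1a1, chosen after its values were seen, rose from 30891 ± 1782 to 37898 ± 1003 normalised reads (log2 ratio 0.30 ± 0.05, limma adjusted p = 9.10e-05). The nucleolar chaperone Npm1 rose by 0.47 and the initiation factor subunit Eif2s3x by 0.45. These 3 rises were 0.18, 0.22 and 0.25 after adjustment and still passed. The smallest p in this list belonged to a fall, that of Fau (-0.54), which also still passed at -0.21. Of 23 genes of mTOR control 8 rose (34.8%) and 6 fell (26.1%), led by the kinase Rps6ka3 (0.46) and the mTOR inhibitor Akt1s1 (-0.45). In this list 2 rose and 2 fell after adjustment. Rps6ka3 was still called then, at 0.17, and Akt1s1 was not, at -0.04. In the S6 kinase family 2 of 10 rose (20%) and 3 fell (30%). This family overlaps the mTOR list, and Rps6ka1, Rps6ka2, Rps6ka3, Rps6kb1 and Rps6kb2 are counted in both. Rps6kb1, which phosphorylates Rps6, rose by 0.35 ± 0.08 (limma adjusted p = 0.00277), and its value was 0.04 after adjustment.

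Of 40 ribosome biogenesis genes 5 rose and 2 fell (12.5% and 5%, against 12.3% and 13.5% of all genes), with the processing factor Utp20 at 0.39, nucleolin (Ncl) at 0.27 and Eif6, which keeps free large subunits apart from small ones, at -0.24. None of these 3 passed after adjustment, at 0.24, 0.03 and -0.03. Among chaperones and transport factors of ribosomal proteins 4 of 10 rose and 3 fell, the import receptor Ipo7 by 0.55 and the exporter Xpo1 by 0.43. After adjustment Ipo7 still rose, by 0.26, and Xpo1 did not pass, at 0.10. The 78 mitochondrial ribosomal protein genes, which build the separate ribosome of mitochondria, had 16 falls and 4 rises and a median of -0.04. The falls with the smallest p were Mrpl48 (log2 ratio -0.59 ± 0.06, limma adjusted p = 4.25e-06), Mrpl52 (-0.59 ± 0.10, limma adjusted p = 0.000217) and Mrps24 (-0.57 ± 0.12, limma adjusted p = 0.00176). After adjustment 8 of the 78 fell, where 5.37% of all genes were called lower, and these 3 stood at -0.75, -0.34 and -0.42.

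**Figure D5:**
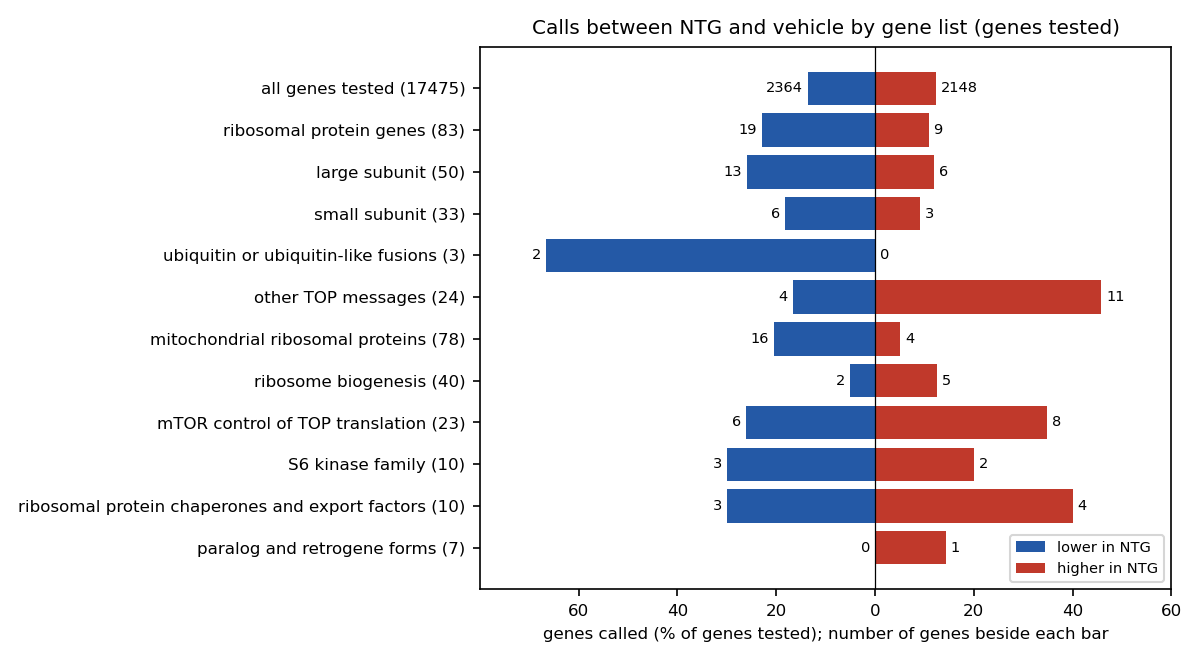
Share of genes tested that were called lower (blue, to the left) or higher (red, to the right) in NTG, in percent, for all genes, the ribosomal protein genes and the related lists, with the number of genes beside each bar. Ribosomal protein genes were called lower in 22.9% and higher in 10.8%, against 13.5% and 12.3% of all genes.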

How the data were processed

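Per the labels' protocols, RNA extracted with TRIzol and enriched on poly-T beads gave strand-specific libraries, sequenced in paired ends. The submitters' processing notes name FastQC, HISAT2 and GRCm38. Not given in the sources used here are the counter, how it treated strand, the annotation and the method of normalization. The deposited values are a signal: gene counts divided by 1 size factor per library. Whole reads were recovered for 100% of values, within 0.01. No 2 libraries of a group were alike within counting error (chi-square 3.97 to 7.74 for each degree of freedom).

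The main test was limma-trend with robust empirical Bayes (limma 3.58.1, R 4.3.3) on log2(value + 1) of the 17475 genes that reached 1 in 3 or more libraries, with two-sided p-values adjusted by Benjamini-Hochberg over all of them. This scale understates the change of low genes. The 23 alternatives included edgeR 4.0.16, DESeq2 1.42.0 and limma-voom on recovered reads. Trends over GC content and length (mgcv 1.9.3) used GENCODE transcripts, matched for 16327 genes (93.2%). Trends fitted on other genes, on length, on GC content and on coding length were added after seeing the data. The scripts were tested on simulated data.

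Members and lists were chosen with earlier results of these data known. Named genes were the 6 largest rises and 6 largest falls among called members without overlap, the 5 highest and 5 lowest levels per length, stalk, paralog and other known members, and up to 3 genes per related list with the smallest p. A gene outside this rule was picked with its values in view, and the text says so. Results for a few genes are not reported here.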

Additional observations from a re-analysis of the deposited data

How the results depend on the processing

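Over 23 alternatives, all 28 called genes had the same direction in edgeR, and 5 changed sign in at least one setting. Single libraries left out gave 7 to 12 rises, 17 to 22 falls, a median log2 fold change between -0.07 and -0.01 and a share of reads between -0.0500 and -0.0059 percentage points (NTG minus vehicle). Limma's test against a minimum fold of 1.2 left 5 falls and 0 rises. The GC and length adjustment gave 11 falls (10 of the 19 and Rps20), 12 with the trend fitted on other genes and 9 with coding length in place of transcript length. Removing the length trend alone gave a median of 0.05. Shares of all genes called are not given for the fits without single libraries, with the trend fitted on other genes or with coding length. Those counts therefore cannot be set against all genes. With the GC and length adjustment 1 fusion gene, 8 mitochondrial ribosomal protein genes, 1 biogenesis gene, 2 mTOR genes and 1 chaperone or export gene fell, and 2 biogenesis genes, 2 mTOR genes and 1 chaperone or export gene rose. That fit called 0 mitochondrial rises (8 at an unadjusted p under 0.05) and 0 falls of S6 kinases (1 at an unadjusted p under 0.05). The cause of these changes was not tested beyond the trend removed.

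The labels do not say whether the shared replicate numbers pair the libraries. Deviations of same-numbered libraries correlated at 0.00, -0.03 and -0.02 over all genes and at 0.12, -0.08 and 0.56 over the members. With 3 libraries in each group these values cannot decide it. With the replicate number as a block 11 members rose and 24 fell, and the block combined with the removed GC and length trends gave 14 rises and 15 falls. The shares of all genes called by the block fits are not given here. These counts therefore cannot be read as more calls among the members than among all genes.

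Of 825 values of named genes under the alternatives, 714 kept their direction and their side of the threshold and 58 changed sign. Most belong to genes near 0 that were not called. With GC, or GC and a length, removed, Rpl5 stood at -0.01 under 5 trends, Rplp1 at 0.01 or 0.02 and Rps19 between 0.02 and 0.08 (0.02, 0.05, 0.06, 0.08). With the same trends Rps15a stood at -0.04, Rps3 at -0.02 or -0.00, Rpl22l1 at -0.05, -0.06 or -0.10 and Rpl22 at -0.01 (-0.02 without vehicle replicate 1). Rpl13a stood at 0.08 with GC and length, 0.11 with coding length, 0.05 with length alone, 0.01 scaled without ribosomal protein genes, 0.00 in limma-voom and 0.02, 0.03 and 0.04 without single libraries (-0.08 to 0.04 over all 6). Rpl23a stood at -0.00, -0.01 or -0.05 with trends removed and between -0.02 and 0.03 without single libraries (-0.00 in one). Rpl36a turned to 0.07 with length alone and 0.00 without vehicle replicate 1, and Rps25 to 0.01 with coding length and without vehicle replicate 3 (-0.09 without NTG replicate 3). Without NTG replicate 2, Rps23rg1 turned to 0.01 (from -0.35 without NTG replicate 3) and Rpl7l1 to 0.00, and Rplp0 to -0.01 without vehicle replicate 2. Standard errors on the log2 scale were widest for the 3 retrogenes (0.39 to 0.59), which have few reads, and were 0.15 for Rpl22l1 and 0.11 for Rps27l.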
